A study of Mus musculus with 26 samples.

Results

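The regions described here are places in the mouse genome where probe pool 2 against the DRR enhancer RNA recovered chromatin in both ChIRP libraries, where neither library of probe pool 1 did, and where no ATAC peak lay. They were found by widening every ChIRP summit by 250 bp on each side, merging the 4 lists on chromosomes 1 to 19 and X wherever 1 bp overlapped, and keeping regions called in both pool 2 lists and in neither pool 1 list that touched no peak of the 6 ATAC lists. This left 9958 of 97279 ChIRP regions (10.2%). The members were thus chosen by their ChIRP calls and by the lack of ATAC peaks, so those values describe the set and are not findings about it. SMC3 peaks, the spacing of the regions and the ATAC peaks around them were not used in the choice.

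The series used C2C12, a mouse myoblast line whose cells fuse into myotubes when serum is lowered, and all libraries came from this 1 line. ChIRP was done in myotubes, with 2 libraries of pool 2 and 2 of pool 1. SMC3 ChIP-seq covered myotubes transfected with siDRR, myotubes for which the labels give no transfection, and myoblasts, with 2 libraries each. ATAC-seq covered myotubes transfected with siDRR, siSmc3 or Control, again with 2 libraries each. The 10 input and LacZ probe libraries of the series were not analysed here, so no background pull-down stands beside the ChIRP values. Nothing in the labels ties the replicates to separate cultures, so their spread may be technical.

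DRR, the distal regulatory region, is an enhancer upstream of Myod1, the gene of a transcription factor that drives muscle differentiation, and it is transcribed into an enhancer RNA. ChIRP captures such an RNA with biotinylated DNA probes and sequences the chromatin that comes with it. Separate probe pools are used because a probe can also bind DNA or other RNA by itself, and a site seen with 1 pool lacks that check. SMC3 is a subunit of cohesin, the ring complex that holds DNA loops and sister chromatids. ATAC-seq marks chromatin open to a transposase, such as active promoters and enhancers. All coordinates are those of the files, in mouse build mm9. Genes at the regions and their base sequences were not analysed here.

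Of the 11980 regions called by both pool 2 libraries and no pool 1 library, 83.1% lay outside every ATAC peak (exact 95% binomial interval 82.4% to 83.8%, counting error only) and 2022 touched one. The whole lists behind these calls differed in length. Pool 2 held 23087 and 20295 summits and pool 1 held 3776 and 68812. The ATAC lists ran from 58138 to 103056 peaks and the SMC3 lists from 8384 to 33154. Lists give no read counts, so the depth is unknown, and a score is the authors' own value for a peak, used only to rank peaks within its list.

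Most of the regions were single, sharply placed summits. In 9876 of the 9958, each pool 2 list had exactly 1 summit, and the best summits of the 2 lists lay a median of 24 bp apart. They were within 50 bp of each other in 82.6% of the regions and at the same base in 166. The width, which is 501 bp when the summits coincide, had a median of 525 bp and passed 1000 bp in 12 regions.

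The deposited scores ran from near the bottom to near the top of both lists. In replicate 1 the regions' best summits scored 1.48 to 149, with a median of 8.18 against 7.21 over the list. In replicate 2 they scored 1.52 to 195, with a median of 11.6 against 9.45 over the list. As rank percentiles within a list, with 100 the best, the medians were 60.3 and 63.0. The 2 percentiles of a region went together only loosely (Spearman's rho 0.45 across 9958 regions, which share libraries and are not independent). At both ends the lists could be read together: 692 regions stood at or above the 90th percentile in both lists, and 469 stood below the 25th in both.

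**Figure D1:**
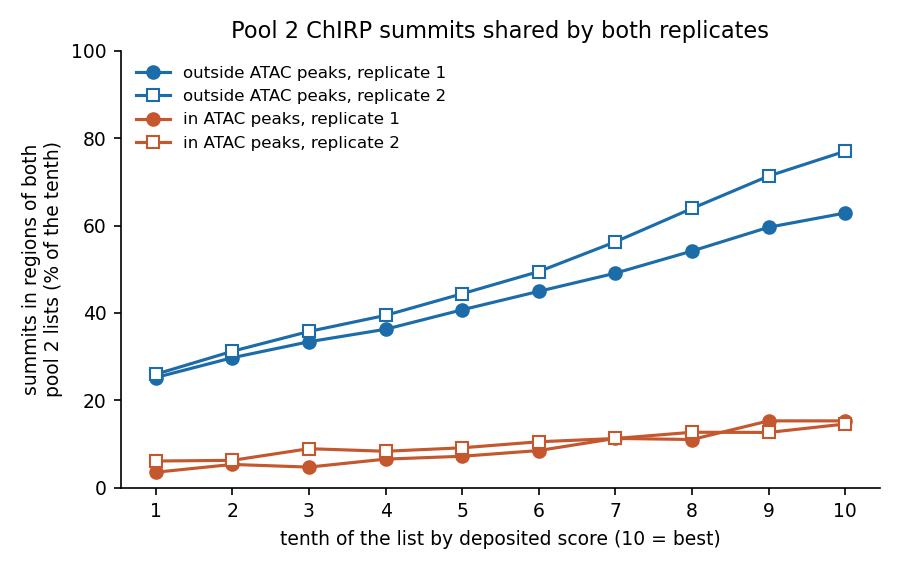
Share of the summits of each pool 2 list, cut into 10 equal bins by deposited score (x axis, 10 is the best), that fell in regions of both pool 2 lists outside ATAC peaks (blue) and in ATAC peaks (orange); filled circles are replicate 1 and open squares replicate 2. In replicate 1 the share outside ATAC peaks was 25.2% in the lowest bin and 62.9% in the best, and in replicate 2 it was 26.0% and 77.0%.

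Better-scoring summits recurred more often, as the plot by bins of the lists shows. Outside ATAC peaks, the best bin of replicate 2 had 1556 of 2020 summits in such a region, and its lowest bin had 525 of 2021. Summits of ATAC-overlapping pool 2 regions made up 14.6% of the same best bin and 6.14% of the lowest. In total 43.6% of the summits of replicate 1 and 49.5% of those of replicate 2 belonged to the set. Regions that missed it because only 1 pool 2 list called them were more numerous, at 14672, and lower in rank, at a median percentile of 34.6 in either list. Another 341 regions outside ATAC peaks were called in both pool 2 lists but also in 1 pool 1 list, and 87 in all 4 lists.

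The highest-ranked region lay on chromosome 7 (129088454 to 129088954). Both libraries placed its summit at base 129088704, with scores of 149 (rank 4) in replicate 1 and 195 (rank 2) in replicate 2. The nearest ATAC peak was 777 bp away and the nearest pool 1 summit 25096 bp away. No SMC3 library had a peak there.

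The second, on chromosome 15 (91290506 to 91291064), held ranks 7 and 4 and lay 2279 bp from an ATAC peak. Next, on chromosome 6 (128584402 to 128584904), came a region that ranked 6 in both lists, with summits 2 bp apart. Chromosome 2 (117605243 to 117605744) followed at ranks 10 and 3, only 161 bp from an ATAC peak. It was touched by an SMC3 peak in both myoblast libraries, at SMC3 rank percentiles of 79.0 and 76.2, while the nearest myotube SMC3 peak ended 2 bp from its edge.

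The other regions of the leading 10 were on chromosome 18 (41919062 to 41919576), chromosome 5 (28583429 to 28584018 and 103899595 to 103900133), chromosome 1 (39796261 to 39796811), chromosome X (132220748 to 132221293) and chromosome 6 (34885819 to 34886325). The chromosome 1 region was 492 bp from a pool 1 summit, the closest among the 10. The last of them met an SMC3 peak in myoblast replicate 2 alone. None of the 10 was touched by SMC3 in any myotube library, with or without siDRR. Across the whole set 97.6% of the regions were touched in none of the 6 SMC3 lists, so this does not set the 10 apart.

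The widest regions were not strong in both lists. The widest, on chromosome 17 (7140386 to 7142126, 1741 bp), was made of 4 summits of replicate 1 and 1 of replicate 2. Its best summits stood at percentile 89.6 in replicate 1 and at 0.431 in replicate 2. The others lay on chromosome 6 (145734252 to 145735595 and 100605431 to 100606566), chromosome 17 (15625325 to 15626562) and chromosome 3 (3073182 to 3074383). The last of these was 676837 bp from the nearest myotube SMC3 peak and 22909 bp from the nearest ATAC peak.

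Lying outside ATAC peaks did not mean lying far from them. The edge of a region was a median of 3272 bp from the nearest peak of any ATAC list, with a middle range of 1142 to 9532 bp. Within 1 kb there were 2211 regions (22.2%), and beyond 50 kb there were 612. At the limit itself, 238 regions (2.39%) stopped within 100 bp of a peak, while 244 of the 2022 excluded regions (12.1%) overlapped one by at most 100 bp. The score of a region was nearly unrelated to this distance (Spearman's rho -0.01 across 9958 regions, which share their libraries). The median distance was 3270.5 bp in the fifth of the regions with the lowest mean rank and 3091 bp in the fifth with the highest.

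**Figure D2:**
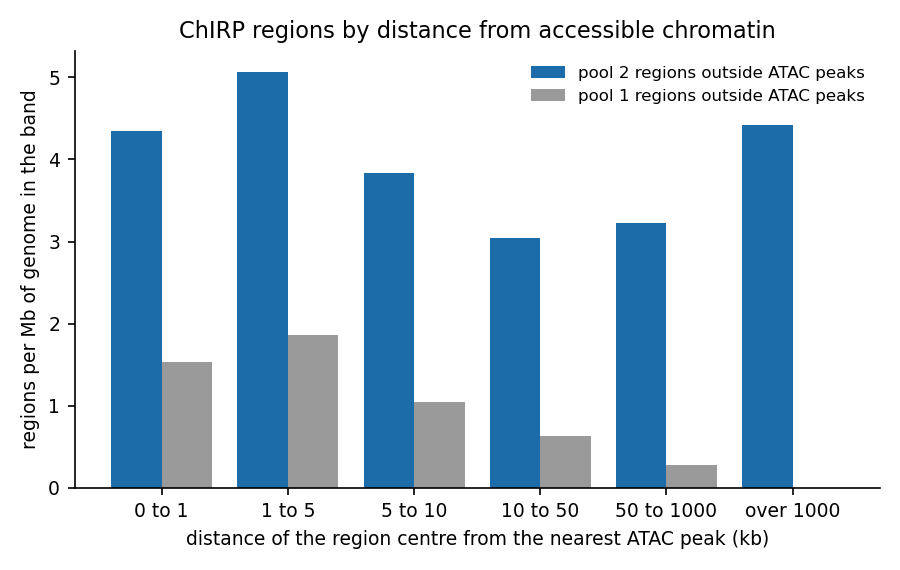
Regions per Mb of genome (y axis) in bands of distance between the region's centre and the nearest peak of the 6 ATAC lists (x axis), for pool 2 regions outside ATAC peaks (blue) and pool 1 regions called in both replicates outside ATAC peaks (grey). Between 50 and 1000 kb there were 3.23 pool 2 regions per Mb and 0.279 pool 1 regions per Mb, and beyond that 4.42 and 0. The pool 1 regions need a call in pool 1 replicate 1, a list of 3776 summits.

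Densities were counted per Mb of genome, from the first to the last peak base of any list on each chromosome. At 1 to 5 kb from an ATAC peak there were 5.07 regions per Mb. There were 3.04 per Mb at 10 to 50 kb and 3.23 per Mb from 50 kb to 1 Mb. Beyond 1 Mb, in only 10.6 Mb of genome, there were 47 regions, or 4.42 per Mb. The 0 to 1 kb band held 4.34 per Mb of its whole length. A centre closer than 250 bp to a peak cannot belong to the set, so this density is understated. Whether this band or the next is denser was thus not measured. The 3020 pool 1 regions called in both replicates outside ATAC peaks had 1.87 per Mb at 1 to 5 kb. The nearest band is limited for them in the same way. They had 0.279 per Mb from 50 kb to 1 Mb and 0 of 3020 beyond 1 Mb (which allows a share of up to 0.0993%). Each needs a call in pool 1 replicate 1, whose list held 3776 summits against 68812 in replicate 2. In a 5.08 Mb stretch of chromosome X without ATAC peaks, replicate 1 had 0 summits and replicate 2 had 243. The contrast is thus with regions limited by 1 short list, and the part of list length was not tested.

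The same contrast, with pool 1 limited by the short list of its replicate 1, could be read in each ATAC library. Within 10 kb of a pool 2 region the share of regions with an ATAC peak was 44.6% and 52.5% in the siDRR libraries, 48.9% and 53.8% in the siSmc3 libraries and 40.6% and 52.8% in the control libraries. For the pool 1 regions it was 50.5% and 60.2%, 59.5% and 61.9%, and 45.5% and 59.6% in the same order. The pool 2 share was lower in 6 of 6 libraries, by a mean of 7.33 percentage points. A two-sided exact permutation test by sign changes over the 6 libraries gave p = 0.0312, the smallest it allows, and an adjusted p of 0.0703 (Benjamini-Hochberg over 9 library tests). It does not pass at 0.05, and it measures the spread between ATAC libraries over fixed regions, not the sampling of regions.

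Differences in the flanks under either knockdown were within the spread of the libraries. Regions with an ATAC peak within 10 kb made up 48.6% ± 5.59 in siDRR and 46.7% ± 8.58 in control myotubes (SD, n = 2 each; p = 1, two-sided exact permutation test). Under siSmc3 they made up 51.4% ± 3.47, against the same control libraries (n = 2 each; p = 0.667, two-sided exact permutation test). With 2 libraries against 2 no p can fall below 0.333. The longer list of each group always had the higher share, and with all ATAC lists cut to 58137 peaks the differences were 0.0954 percentage points under siDRR and 0.346 under siSmc3, against 1.87 and 4.66 with full lists. Both differences also turned negative when control replicate 1 was left out, at -4.22 points under siDRR and -1.48 under siSmc3, and that of siDRR did without siDRR replicate 2, at -2.06.

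Single ATAC regions near the set were lost and gained at shares near or below those of all ATAC regions. Of 4066 ATAC regions within 10 kb that both control libraries had called, 215 were called in neither siDRR library (5.29%), against 5.85% of all such ATAC regions. Of 4185 called in both siDRR libraries, 243 were called in neither control library (5.81%), against 6.26% overall. For siSmc3, 276 of 4082 were missing (6.76%, against 8.31% overall) and 329 of 3985 were gained (8.26%, against 9.58% overall). Both comparisons share the control libraries. All 4 shares were below the background, and these differences were not tested.

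Across the genome the set held 3.77 regions per Mb, counting each chromosome from base 1 to the last peak base of any list. Counted from the first peak base instead, which leaves out 60.3 Mb at the chromosome starts, it held 3.86 per Mb. Autosomes ranged from 2.35 per Mb on chromosome 7 to 5.21 per Mb on chromosome 15, with a median of 3.82. Chromosome 15 was also the densest in both pool 2 lists, at 12.6 and 10.6 summits per Mb, and in ATAC peaks, at 46.3 per Mb averaged over the 6 lists. Chromosome 7 was the sparsest in both pool 2 lists, at 5.37 and 5.38 summits per Mb. The part that copy number or mappability plays in these densities was not tested.

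**Figure D3:**
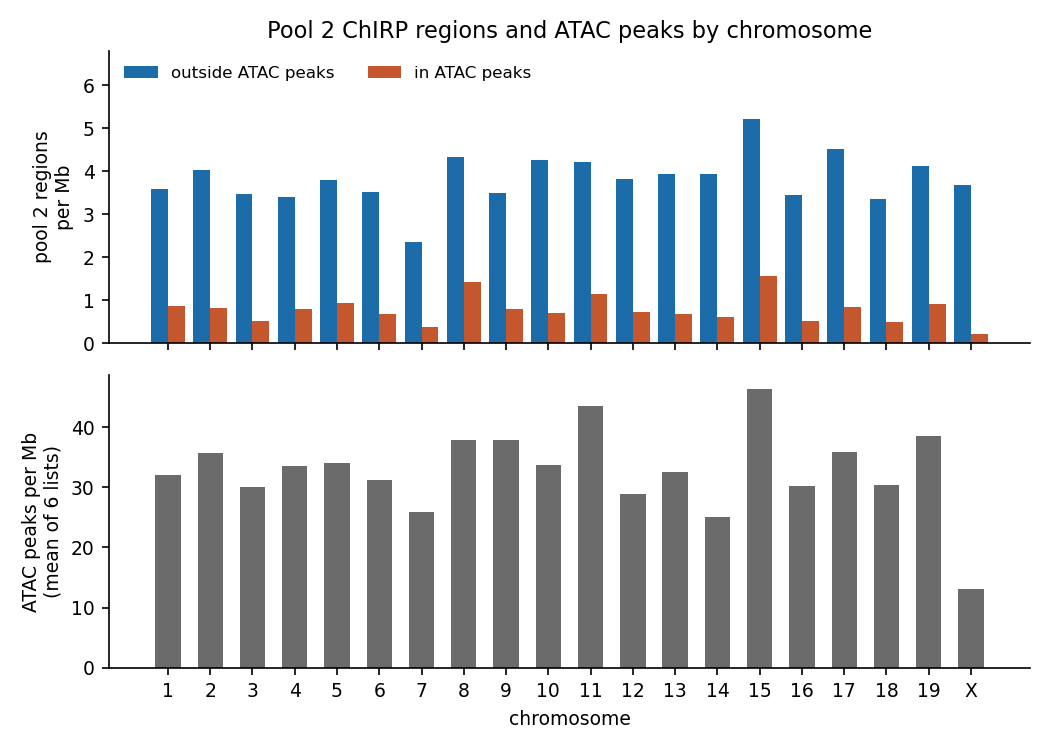
Pool 2 regions per Mb outside (blue) and in (orange) ATAC peaks, by chromosome (upper panel), and ATAC peaks per Mb as the mean of the 6 lists (lower panel). Chromosome X has 3.67 regions per Mb outside and 0.222 in ATAC peaks, and 13.0 ATAC peaks per Mb.

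Chromosome X stood apart in the balance between the sets. Its 611 regions gave 3.67 per Mb, close to the autosomal median, but only 37 further pool 2 regions on it touched an ATAC peak. So 94.3% of its pool 2 regions lay outside ATAC peaks (exact 95% interval 92.2% to 95.9%), against 82.5% on the autosomes (81.8% to 83.2%) and at most 87.1% on any single autosome. ATAC peaks were sparse there, at 13.0 per Mb against 25 to 46.3 on the autosomes. The choice of the regions used these ATAC peaks, so the share describes the set, and its intervals cover counting error only. The part of ATAC peak density in the share was not tested. The median distance from a region to an ATAC peak was 15533 bp on chromosome X and 1950 to 5516 bp on the autosomes. In pool 1, replicate 2 had 28.0 summits per Mb on chromosome X, within its autosomal values, while replicate 1 had 0.360 per Mb there, the lowest of all its chromosomes.

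Stretches between neighbouring ATAC peaks 1 Mb or more apart held 203 regions. There were 24 such stretches, together 50.1 Mb, so the density over all of them was 4.05 per Mb, close to that of the genome. The longest, of 7.33 Mb, was among 8 that held no region, and the 203 regions were unevenly shared among the others. SMC3 was sparse in all of these stretches, with 18 peaks over the 6 lists together. The part that mappability plays in the lack of ATAC and SMC3 peaks there was not tested. A stretch of 5.08 Mb on chromosome X (25432527 to 30515014) held 58 of the regions, or 11.4 per Mb, and no SMC3 peak of any library. Pool 2 had 83 and 70 summits in it, and pool 1 had 0 and 243.

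The densest stretch lay on chromosome 14 (41998321 to 43935441), with 47 regions in 1.94 Mb, or 24.3 per Mb. Pool 2 had 50 and 48 summits there and pool 1 had 0 and 50, so nearly every pool 2 summit was found by both replicates. None of the 6 SMC3 libraries had a peak in it, a trait it shared with other stretches free of ATAC peaks. The 2 densest 1 Mb windows of the genome, with 25 and 24 regions, were the neighbouring windows of chromosome 14 starting at 43000000 and 42000000. The next, with 19 regions, was on chromosome 6 and starts at 47000000. Among 2462 windows with a region the median was 4, and 66 windows held 10 or more.

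Regions were mostly far apart, at a median of 79370 bp to the nearest neighbour, and 899 (9.03%) had one within 10 kb. Chains of neighbours no more than 10 kb apart, start to start, were short. There were 377 pairs, 18 chains of 3 and 1 chain of 4. Only 3 chains held 5 or more regions, and these were 2 chains of 8 on chromosome 6 and 1 of 12 on chromosome 7. They were picked out after the positions had been seen.

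**Figure D4:**
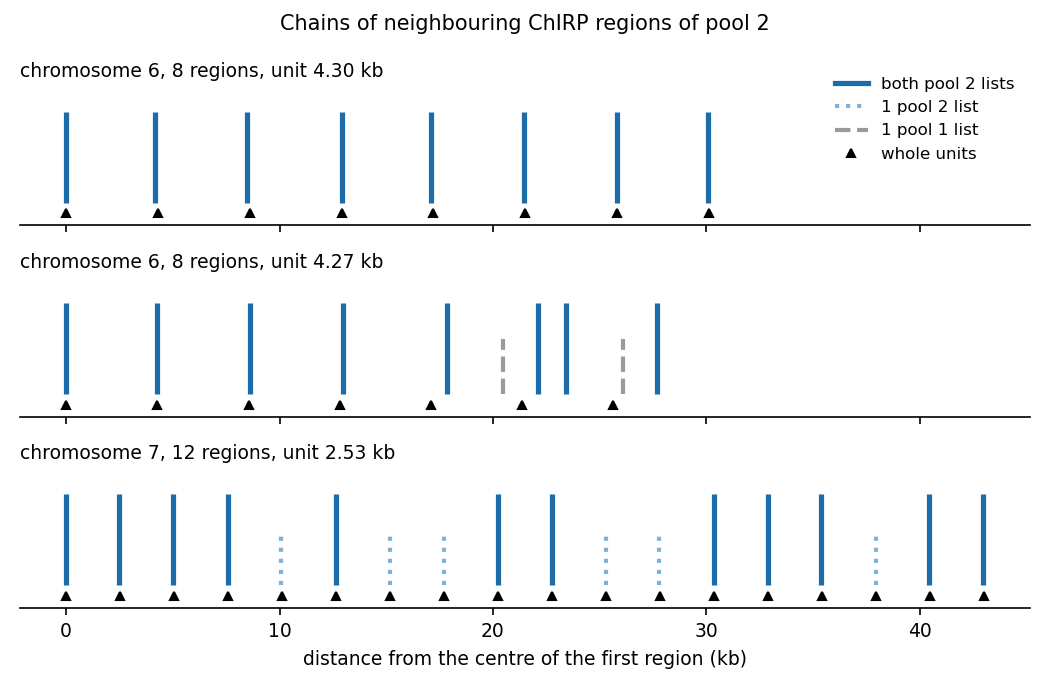
Positions of ChIRP regions along the 3 chains of 5 or more regions, as the distance in kb from the centre of the first region. Solid blue lines are regions of both pool 2 lists, dotted lines regions of 1 pool 2 list, dashed grey lines regions of 1 pool 1 list, and triangles whole multiples of the chain's spacing; on chromosome 7 the 6 dotted lines fall on multiples left empty by the 12 solid ones.

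In 2 of the 3 chains every spacing was, within 5%, a whole multiple of 1 unit, and in the other most were. The first chain on chromosome 6 (47603214 to 47633969) had 7 spacings between summits, all between 4278 and 4367 bp, around a median of 4304 bp. Its regions scored 11.3 to 20.0 in replicate 1 and 15.1 to 24.1 in replicate 2, all at or above percentile 76.6 of their list. The chain on the same chromosome 54041 bp further on (47688011 to 47716251) was less regular. It had a spacing of 4275 bp in 5 of 7 intervals, within 5%, while the other 2 intervals were 4860 and 1343 bp. One of its regions, starting at 47696633, had the highest scores of the 28, 29.7 and 42.5, at percentiles of 98.9 and 99.0.

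The chain on chromosome 7 (67003924 to 67047416) repeated at 2530 bp. Of its 11 spacings, 7 were 1 unit long, 2 were 2 units and 2 were 3 units, each within 5% of a whole number. The places left empty by the longer spacings were filled by 6 further regions that only 1 pool 2 list had called, at 0.976 to 1.02 or 1.99 to 2.00 units after the preceding member. With them, no place along the chain lacked a pool 2 summit.

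Across the 3 chains no SMC3 library had a peak, and the ATAC libraries had 1 peak in all, in siDRR replicate 1 on chromosome 7. Pool 1 had 2 summits, both in replicate 2 and in the second chromosome 6 chain, at 0.618 and 0.619 units after a member. The 28 regions are near each other and may share sequence, so they are not independent sites. How reads from near-identical copies were placed is not given in the sources used here, and its part in these chains was not tested. All 28 remained with summits widened by 100 or 500 bp, and 27 with the better-scoring 50% of each ChIRP list.

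Cohesin was rarely called at the set. SMC3 peaks touched 25 and 87 of the 9958 regions in the siDRR libraries (0.251% and 0.874%), 69 and 112 in the myotube libraries (0.693% and 1.125%) and 139 and 168 in the myoblast libraries (1.396% and 1.69%). Exact 95% intervals, which cover counting error only, were 0.163% to 0.370% for the lowest of these and 1.44% to 1.96% for the highest. In each group the replicate with the longer SMC3 list touched more regions. Across all 6 lists 237 regions (2.38%) were touched at least once, 103 in a single list and 17 in all 6.

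**Figure D5:**
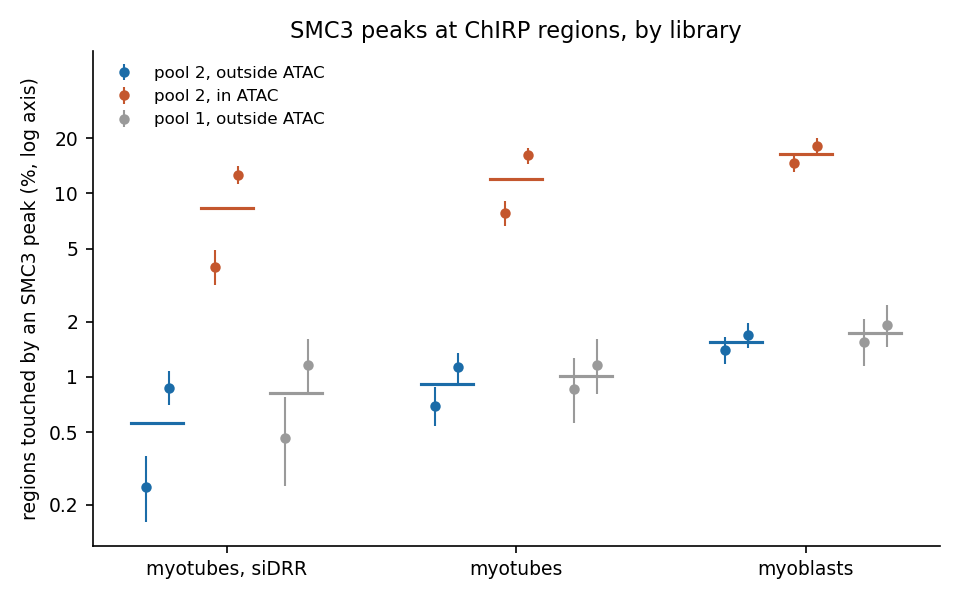
Percent of ChIRP regions touched by an SMC3 peak (log axis) in each library of siDRR myotubes, myotubes and myoblasts. Points are libraries (replicate 1 on the left) with exact 95% binomial intervals, bars are means of 2 libraries, and colours are pool 2 regions outside ATAC peaks (blue), pool 2 regions in ATAC peaks (orange) and pool 1 regions outside ATAC peaks (grey); blue points lie at 0.251% to 1.69% and orange ones at 3.96% to 18.2%.

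Pool 2 regions in ATAC peaks had higher shares in every library. Their shares were 3.96% and 12.6% in siDRR myotubes, 7.81% and 16.1% in myotubes and 14.6% and 18.2% in myoblasts. Set against these, the regions outside ATAC peaks averaged 1.00% ± 0.513 and those in ATAC peaks 12.2% ± 5.39 (SD over 6 libraries). Only 18.1% to 28.2% of the peaks of an SMC3 list lay outside every ATAC peak, so barring ATAC peaks also bars most SMC3 peaks.

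Among regions outside ATAC peaks the shares of the probe pools lay closer together. Against pool 1 regions, which averaged 1.19% ± 0.511 over the same 6 libraries, the difference was -0.182 percentage points, and the pool 2 share was lower in 6 of 6. Regions seen by at least 1 library of each pool outside ATAC peaks, 924 in number, averaged 1.73% ± 0.705, and the pool 2 share was again lower in 6 of 6. Both comparisons had p = 0.0312, the smallest possible, in the same exact permutation test, and an adjusted p of 0.0703. The test measures the spread between SMC3 libraries over fixed regions, not the sampling of regions. SMC3 sites recurred between libraries: of 52 pool 2 regions with SMC3 in both myotube libraries, 44 had it in both myoblast libraries. The 6 libraries are thus not 6 independent results, and the p values do not decide whether the regions differ. Per library, SMC3 touched 14 to 58 of the 3020 pool 1 regions and 5 to 22 of the 924. The pool 2 regions had a median width of 525 bp and those 924 regions one of 634.5 bp, and the part of width in this difference was not tested.

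Peaks that did touch the set were of ordinary strength. Their median SMC3 rank percentile was 43.2 and 56.0 in the siDRR libraries, 42.0 and 53.8 in the myotube libraries and 53.4 and 57.8 in the myoblast libraries. At pool 2 regions in ATAC peaks the medians were 58.8 and 56.8, 54.5 and 51.9, and 51.8 and 57.4 in that order. Only myotube and siDRR replicate 1, the shorter list of each pair, were lower by more than 10 percentile points at the set.

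Both myotube libraries had SMC3 at 52 regions, or 0.522% (exact 95% interval 0.390% to 0.684%), against 146 of the 2022 pool 2 regions in ATAC peaks (7.22%, 6.13% to 8.44%). Other ChIRP regions outside ATAC peaks were also low. The share was 0.762% for pool 1 regions, 0.688% for regions of 1 pool 2 replicate alone and 1.52% for regions of both pools. With summits widened by 500 bp the share of the set was 0.827%, and with the 1 kb around ATAC peaks barred as well it fell to 0.284%. Of the 52, both myoblast libraries had SMC3 at 44 and neither did at 3. With the regions put in 5 equal bins by mean ChIRP rank, from lowest to highest, the counts were 11, 10, 9, 7 and 15, out of 1991 or 1992 each. Regions with SMC3 in any of the 6 lists numbered 43, 43, 54, 35 and 62 in the same bins, with no steady order and no test.

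The region with the strongest SMC3 lay on chromosome 10 (21716037 to 21716553). Its SMC3 percentiles were 92.9 and 96.3 in siDRR myotubes, 99.7 and 99.7 in myotubes and 99.1 and 99.6 in myoblasts, so all 6 libraries called it. Its ChIRP summits were weak, at percentiles of 28.6 and 2.53. The second, on chromosome 19 (44494095 to 44494640), had SMC3 percentiles of 98.1 and 98.8 in myotubes, 90.5 in siDRR replicate 2 and none in siDRR replicate 1.

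Several of the 10 regions with the highest myotube SMC3 percentiles also ranked high by ChIRP. On chromosome 8 (64354720 to 64355235) the ChIRP summits ranked 425 and 61, at percentiles of 98.0 and 99.7. SMC3 stood there at 85.7 and 97.4 in myotubes and at 93.5 in siDRR replicate 2, with none in siDRR replicate 1. An ATAC peak lay 87 bp away. On chromosome 2 (28780181 to 28780687) the ChIRP percentiles were 96.1 and 89.9. SMC3 there was at 72.3 and 95.9 in siDRR myotubes and 88.2 and 97.3 in myotubes, and myoblast replicate 2 alone had it among myoblasts. The other 6 of the leading 10 were on chromosomes 1 (108613320 to 108613841), 2 (131654018 to 131654551), 10 (74949677 to 74950245), 9 (107998607 to 107999146), 5 (91380670 to 91381245) and 15 (103182700 to 103183208), with mean myotube SMC3 percentiles from 95.5 to 81.4, and each was called in all 4 siDRR and myotube libraries. Among these, mean ChIRP percentiles were 89.5 on chromosome 9, 89.4 on chromosome 5 and 89.3 on chromosome 15, against 44.6 to 70.9 for the rest.

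Whether SMC3 at these regions depended on the DRR RNA was asked with siDRR. SMC3 touched 0.562% ± 0.440 of the regions in siDRR myotubes and 0.909% ± 0.305 in myotubes (SD, n = 2 each; p = 0.667, two-sided exact permutation test; adjusted p = 0.750 over 9 tests). The siDRR lists are shorter. Per 1000 peaks of a list, 2.98 and 3.75 regions were touched in the siDRR libraries and 4.58 and 4.18 in the myotube libraries. Here the groups did not overlap (p = 0.333 by exact permutation, which cannot go lower with these libraries). With every SMC3 list cut to 8384 peaks the difference in the share fell to -0.0753 percentage points, against -0.346 with full lists.

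Of 73 SMC3 regions at the set present in each of the myotube lists, 5 were found in neither siDRR library (6.85%, exact 95% interval 2.26% to 15.3%), against 6.45% of all 13876 SMC3 regions of both myotube libraries. The share was thus at the background. They lay at the ChIRP regions of chromosome 2 (158019819 to 158020368), chromosome 8 (122887597 to 122888119), chromosome 11 (114741674 to 114742198) and chromosome 13 (32586252 to 32586803 and 49117363 to 49117907). Their myotube SMC3 percentiles ran from 19.6 to 60.6, and 4 of them had SMC3 in both myoblast libraries. Without siDRR replicate 2, whose list was the longer, 37 of 71 were missing (52.1%), against 47.9% of all SMC3 regions under the same rule. Without myotube replicate 1 it was 25 of 124 (20.2%, against 24.9% of all), and without myotube replicate 2 it was 11 of 73 (15.1%, against 11.9%). Leaving out pool 2 replicate 1 or 2 gave 11 of 108 or 10 of 160 at the correspondingly larger sets. In the other direction, 38 SMC3 regions at the set were called in both siDRR libraries. Of these, 0 were absent from both myotube libraries (exact 95% interval 0% to 9.25%), against 0.502% of all such regions.

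Both myotube libraries had fewer SMC3 calls at the set than both myoblast libraries. SMC3 touched 0.909% ± 0.305 of the regions in myotubes and 1.54% ± 0.206 in myoblasts (SD, n = 2 each). The exact permutation p was 0.333 (two-sided), no lower value being possible, and the adjusted p was 0.5. The myotube lists are shorter. Per 1000 peaks of a list, 4.58 and 4.18 regions were touched in the myotube libraries and 4.49 and 5.07 in the myoblast libraries. Counted so, the groups overlapped. With all lists cut to 8384 peaks the difference in the share was -0.121 percentage points, against -0.633 with full lists. Of 149 SMC3 regions at the set called in both myoblast libraries, 23 were called in neither myotube library (15.4%, exact interval 10.0% to 22.3%), against 21.7% of all 25207. Of 85 in each of the myotube lists, 3 were in neither myoblast list (3.53%, 0.734% to 9.97%), against 2.43% of all 13837.

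Pool 1 was absent by choice, but its nearest summit could still be measured. It lay a median of 13398 bp from the edge of a region and at least 251 bp away, as the widening requires. Within 1 kb of a pool 1 summit there were 372 regions. Without replicate 2 of pool 1, whose list held 68812 summits, the set would count 10306 regions, against 9958.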

How the data were processed

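Peak lists of 16 of the 26 samples were used, each library having its own list. Per the submitters' processing notes the build is mm9 and the tools, named without their order or role, include MACS2, MACS 1.4.2, Bowtie2 2.2.4, Bowtie 1.1.1, cutadapt 1.12, bcl2fastq 2.17.1 and CASAVA 1.8.2. Not given in the sources used here are which tool served which assay, the peak caller's control and threshold, the read filters and any shift of ATAC read ends. The only value is the score per peak in the deposited lists, made by the authors' peak caller on a scale that is not stated. ChIRP lists hold single-base summits, ATAC and SMC3 lists hold intervals. The reference annotation at hand is of another build and was not used.

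Starts were converted to 1-based positions. A library touches a region if any of its peaks overlaps it by 1 bp. A rank percentile is a peak's place by score in its list (mean of ties), and the best peak in a region gives its percentile; ranks count from 1 for the best score. SMC3 and ATAC regions of a two-group comparison are the merged peaks of its 4 libraries. The spacing unit of a chain is the median of its spacings under 1.5 times their lower quartile. Exact binomial intervals are Clopper-Pearson at 95%; intervals and limits cover counting error only.

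Library shares were compared with two-sided exact permutation tests, adjusted over 9 tests, of which 5 were added after the data had been seen. Named regions are the 10 with the highest mean percentile, the 5 widest, up to 10 with SMC3 in both myotube libraries ordered by SMC3 percentile, and the 3 fullest 1 Mb windows; the 5 SMC3 regions missing under siDRR, the chains and the ATAC-free stretches were chosen after their values were seen. The members and lists were chosen with earlier results of these data known. No pair of pool 2 lists was a repeat deposit: 1.06% of the shorter list's summits recurred at the same base. The procedures were tested on simulated data. Python 3.11.15, NumPy 2.4.6, pandas 2.3.3, SciPy 1.17.1 and Matplotlib 3.10.9 were used.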

Additional observations from a re-analysis of the deposited data

Results flagged for a closer look

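Chromosome Y and the unplaced contigs were left out of every comparison, and ChIRP signal of the same kind was present there. Of 771 ChIRP regions off chromosomes 1 to 19 and X, 57 were found by both pool 2 libraries and by neither pool 1 library. Of the 57, 1 was on chromosome Y and 56 were on 8 unplaced contigs. On the chromosomes used, 9958 of 97279 regions (10.2%) were in the set. The ATAC lists hold 0 peaks on these sequences, so the absence of an ATAC peak carries no information there. No background library stands beside these counts.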

How the results depend on the processing

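The alternatives gave 204 values. Of these, 160 kept their direction or stayed within the main value's error, 41 moved without reversing and 3 reversed. Part of the 160 could not have changed, because the setting altered nothing that the result uses. For example, SMC3 in both myotube libraries stayed at 0.522% when any single myoblast or siDRR SMC3 library was left out. The 160 are thus not a count of checks passed. Depth is unknown, and shorter lists limit every share. The number of regions was 4757 with the better-scoring 50% of each ChIRP list, against 9958, and 9963 to 18203 with 1 library left out, at 16482 without pool 2 replicate 1 and 18203 without pool 2 replicate 2. The share outside ATAC peaks was 86.3% with summits widened by 100 bp, 77.9% with 500 bp, 64.7% with an ATAC peak within 1 kb as the bar and 90.3% with control ATAC lists alone as the bar, against 83.1%, and 82.9% to 85.1% with 1 library left out. In the order of widening by 500 bp, the 1 kb bar and the control bar, SMC3 in both myotube libraries was 0.827%, 0.284% and 0.887%, against 0.522%. It was 0.241% with the better-scoring 50% of SMC3 lists, 0.201% at equal SMC3 list length and 0.251% with an overlap of 250 bp, and 0.504% to 1.125% with 1 library left out. The median distance to an ATAC peak was 3429.5, 4974 and 2811 bp in the same order, and 3129 bp with the better-scoring 50% of ChIRP lists, against 3272 bp, and 3210 to 3875 bp with 1 library left out. The 5 SMC3 regions missing under siDRR became 1 with the better-scoring 50% of ChIRP lists, 2 with the 1 kb bar, 2 at equal SMC3 list length, and 5 to 37 with 1 library left out. The SMC3 difference ranged over single libraries left out from -0.658 to -0.0351 percentage points for siDRR minus myotubes and from -0.849 to -0.417 for myotubes minus myoblasts. The ATAC difference ranged from -4.22 to 7.96 for siDRR minus control and from -1.48 to 10.7 for siSmc3 minus control, reversed at -4.22 and -1.48 without control replicate 1 and at -2.06 without siDRR replicate 2. Leaving out the 28 regions of the 3 chains, chosen after seeing the data, left each of these results labelled the same. With only 28 of 9958 regions removed little change was possible, so this is a weak check. The cause of the changes between settings was not tested. With the replicate number as a block, exact permutation within numbers cannot go below p = 0.5; it gave 0.5 for siDRR and for differentiation at SMC3 (-0.346 and -0.633 points), 1 for siDRR and 0.5 for siSmc3 at ATAC flanks (1.87 and 4.66 points). The block leaves each difference as it was and its p cannot fall below 0.5, so it could not have changed a call. Each group has 2 libraries, so pairing of the numbers could not be checked further.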
